A study of Mus musculus with 16 samples.

Results

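Adipocytes store triglyceride in lipid droplets and secrete hormones, and they lie in the loose connective tissue and sheath around many tendons. The genes described here are 8 genes known for their expression in mature adipocytes, chosen by symbol from the 49568 gene symbols of the count table. They fall into adipokines, which are secreted proteins of fat (Adipoq, Lep and Cfd), proteins that coat or enlarge the lipid droplet (Plin1, Plin4 and Cidec), a carrier of fatty acids in the cytosol (Fabp4) and a nuclear receptor that drives adipocyte differentiation (Pparg). Differentiation is known to run through C/EBP transcription factors and Pparg, which then act together on droplet and adipokine genes, so that mature adipocytes express these genes side by side. Not all are exclusive to fat. Fabp4 is also made by capillary endothelium and macrophages, Pparg by macrophages and other cells, and Plin4 by skeletal muscle.

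RNA-seq was performed on 16 flexor tendons of male mice aged 9 to 11 weeks, 4 in each of 4 groups, which were the uninjured and the injured tendon of C57 (C57BL/6J) and of MRL (MRL/MpJ, an inbred strain known for healing with little scar), with injured tendons taken at 7 days post-injury (dpi). The injury was a partial laceration across 50% of the width of the deep digital flexor tendon of a hind paw digit. No mouse carried an engineered allele or received an agent that the labels name. Per the methods, ketamine and xylazine were given for the surgery and buprenorphine after it, and whether uninjured mice had them is not clear. Each library was made from a single tendon with its sheath and surrounding tissue left on, which limits these libraries as a model of tendon cells alone. Uninjured libraries are numbered 1 to 4 in each strain, and injured libraries carry names, which for C57 are BI-181, BI-183 and BI-184 as well as BI-185, and for MRL are BI-270, BI-272 and BI-274 as well as BI-275.

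Total counts per library ran from 12552424 to 23741648, with the injured MRL libraries the deepest (18524170 or more). Levels are given in CPM, the count of a gene scaled to a fixed library total after adjustment by TMM, which balances libraries on the bulk of their genes. A count of 0 allows up to 3 counts, or 0.126 to 0.241 CPM, which covers counting error only. The 10 tenocyte markers (among them Comp, Col1a2 and Fmod) summed to 1.48% to 7.05% of the counts, and no library lacked them. Some libraries stood apart. The 12 epidermal markers (keratins such as Krt2, Krt1 and Krt10) summed to 97341 CPM in uninjured C57 replicate 4 and to at most 704 CPM elsewhere. The 12 skeletal muscle markers (Acta1, Atp2a1, Myl1 and others) summed to 77273 CPM in BI-181, to 2318 CPM in BI-183 and to at most 32.7 CPM elsewhere. Every fit was repeated without uninjured C57 replicate 4, BI-181 and uninjured MRL replicate 4, a library doubted in earlier work on these counts that does not stand out in the markers above. The effect is given where it changed a result.

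Promoter sequences of 7 of the 8 genes, all but Fabp4, were given in RefSeq for GRCm38.p6 and comprised 10 start sites. The 250 bases upstream of each start were searched on both strands for TTGCNNAA, a core that C/EBP factors are known to bind. It was found in 4 of the 10 windows, from 4 genes (Lep, Cidec, Plin1 and Pparg), and in 9.56% of the 32851 windows of all genes. The windows of Adipoq, Cfd and Plin4 held none. The sites are shown, with the match in capitals and each read 5′ to 3′ along the gene's own strand, so that the 4 promoters can be set side by side. The Lep match reads alike on both strands. The second Pparg match was found on the opposite strand, so its capitals show the reverse complement of the core.
Lep, chr6:29060146-29060193 (+): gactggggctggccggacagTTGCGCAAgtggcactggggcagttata
Cidec, chr6:113434935-113434982 (-): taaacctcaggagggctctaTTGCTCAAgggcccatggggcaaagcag
Plin1, chr7:79732936-79732983 (-): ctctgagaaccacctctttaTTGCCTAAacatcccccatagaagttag
Pparg, chr6:115421831-115421878 (+): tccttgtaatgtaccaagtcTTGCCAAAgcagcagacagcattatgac
Pparg, chr6:115422030-115422065 (+): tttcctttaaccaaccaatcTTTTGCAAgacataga
The Lep match began 55 bases upstream of the start, the Cidec match 198 bases, the Plin1 match 187 bases and the Pparg matches 215 and 16 bases, both before the same start, and a further Plin1 match 58 bases upstream is not printed. A paired AGGTCA with 1 base between, the element that PPAR and RXR receptors are known to bind, was found with up to 2 mismatches in 0 of the 10 windows and in 3.24% of all windows. A match is a string of letters and does not show a bound site.

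Adipoq encodes adiponectin, a hormone that fat cells secrete and the most specific marker among the 8 genes (chromosome 16, 23146536 to 23158028, plus strand, GRCm38). Its level was 6.38, 0.194, 0.463 and 6.06 CPM in uninjured C57 replicates 1 to 4, and 13.9 CPM in BI-181, 13.4 CPM in BI-183, 0.454 CPM in BI-184 and 13.1 CPM in BI-185. It was 0, 8.29, 8.06 and 0.0804 CPM in uninjured MRL replicates 1 to 4, and 0 CPM in BI-270, 20.9 CPM in BI-272, 0 CPM in BI-274 and 0.557 CPM in BI-275. Every group held libraries with the transcript and libraries with next to none. The gene was above 6 CPM in 8 of the 16 libraries, of which 5 were C57 (2 uninjured, 3 injured) and 3 MRL (2 uninjured, 1 injured), and at most 0.557 CPM in the other 8, with no library between. In reads, this was 95 to 461 against 0 to 10.

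Cfd encodes adipsin, a serine protease of the complement system that fat secretes in large amounts (chromosome 10, 79890853 to 79892655, plus strand). It measured 58.1, 5.77, 5.24 and 14.4 CPM in uninjured C57 and 104, 102, 10.1 and 89.1 CPM in injured C57, in the same order of libraries. In MRL it measured 0, 40.02, 43.6 and 8.68 CPM uninjured and 0, 120, 3.48 and 8.02 CPM at 7 dpi. The 8 libraries with the most Cfd were the 8 with the most Adipoq, though the eighth (14.4 CPM) stood little above the ninth (10.1 CPM). BI-184 lay far below the other injured C57 libraries and BI-272 far above the other injured MRL libraries, as with Adipoq. The Cfd reads per Adipoq read, computed where Adipoq had at least 90 reads, ranged from 2.38 in uninjured C57 replicate 4 to 9.11 in uninjured C57 replicate 1 over 8 libraries (median 6.26).

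Lep encodes leptin, the satiety hormone that large, lipid-filled adipocytes secrete (chromosome 6, 29060220 to 29073877, plus strand). It was at 0 in 12 of the 16 libraries. The others were BI-181 with 7 reads (0.42 CPM), BI-183 with 8 reads (0.493 CPM), uninjured MRL replicate 2 with 19 reads (1.37 CPM) and BI-272 with 6 reads (0.272 CPM). All 4 were among the 8 libraries with the most Adipoq. With so few reads Lep did not pass the filter on low counts in any comparison, and no difference was detectable at this depth.

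**Figure D1:**
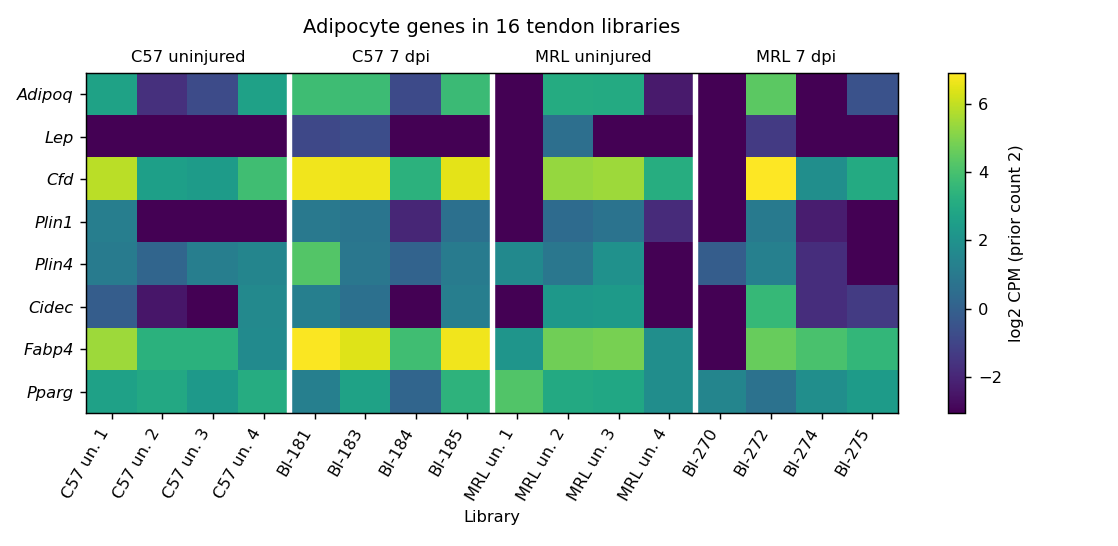
Level of each of the 8 adipocyte genes (rows) in each of the 16 libraries (columns, by group; "un." stands for uninjured and the number for the replicate), as log2 CPM with a prior count of 2, from dark (0 reads) to yellow (highest). Adipoq, Cfd and Cidec are each highest in the same 8 libraries, which include members of every group. Cidec is dim on this scale even there (0.806 to 12.2 CPM), and Cfd shows little step between its eighth and ninth library (14.4 and 10.1 CPM). Pparg does not follow them and is brightest in uninjured MRL replicate 1 (18.5 CPM).

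The lipid droplet genes were low. Plin1, perilipin 1, coats the droplet of mature adipocytes and gates lipolysis (chromosome 7, 79720218 to 79732903, minus strand). It measured 2.22, 0, 0 and 0 CPM in uninjured C57, 1.86, 1.66, 0.13 and 1.42 CPM in injured C57, 0, 1.23, 1.55 and 0.161 CPM in uninjured MRL and 0, 1.95, 0.0882 and 0 CPM in injured MRL. Uninjured C57 replicate 4, with 95 Adipoq reads, had 0 Plin1 reads, while replicate 1, also with 95 Adipoq reads, had 33. The groups overlapped in every comparison.

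Cidec promotes droplet fusion, giving white adipocytes their single large droplet (chromosome 6, 113424634 to 113435760, minus strand). Its level was 0.806, 0.0648, 0 and 3.00 CPM in uninjured C57, 2.28, 1.42, 0 and 2.20 CPM in injured C57, 0, 4.61, 5.01 and 0 CPM in uninjured MRL and 0, 12.2, 0.176 and 0.278 CPM in injured MRL. The 8 libraries with the most Cidec were again those with the most Adipoq, and the eighth highest value (0.806 CPM) stood above the ninth (0.278 CPM).

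Plin4, a perilipin of small droplets in fat and muscle (chromosome 17, 56100591 to 56109803, minus strand), did not follow that order. It measured 2.01, 1.04, 2.16 and 2.68 CPM in uninjured C57, 18.8, 1.73, 0.972 and 1.99 CPM in injured C57, 3.05, 1.73, 3.88 and 0 CPM in uninjured MRL and 0.798, 2.31, 0.176 and 0 CPM in injured MRL. A single library, BI-181, was high, and it is the library with the most skeletal muscle transcript. Whether that RNA was the source of its Plin4 was not tested. Plin4 shares its position with Hdgfl2 on the opposite strand, and the strand setting of the counting is not given in the sources used here, so reads of the pair may not be told apart.

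Fabp4 carries fatty acids in adipocytes, capillary endothelium and macrophages (chromosome 3, 10204088 to 10208576, minus strand). It measured 43.2, 9.85, 9.80 and 3.19 CPM in uninjured C57 and 116, 86.7, 14.5 and 103 CPM in injured C57. In MRL it measured 4.24, 26.7, 29.2 and 3.54 CPM uninjured and 0, 24.1, 16.4 and 11.53 CPM at 7 dpi. In C57 3 of the 4 injured libraries lay above every uninjured one, and BI-184 lay within the uninjured range. The 8 libraries with the most Fabp4 shared 7 with those of Adipoq, with BI-274 in place of uninjured C57 replicate 4. Of the 8 libraries with at most 0.557 CPM of Adipoq, Fabp4 was at 0 in BI-270 and at 3.54 to 16.4 CPM in the rest.

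Pparg, the nuclear receptor at the head of the adipocyte programme (chromosome 6, 115360951 to 115490399, plus strand), was found in every library. It measured 6.18, 7.65, 4.94 and 8.62 CPM in uninjured C57, 2.22, 6.29, 1.04 and 10.3 CPM in injured C57, 18.5, 7.79, 7.16 and 3.46 CPM in uninjured MRL and 2.65, 1.496, 3.48 and 5.23 CPM in injured MRL. The highest level was in uninjured MRL replicate 1, which had 0 reads of Adipoq, Cfd, Plin1, Cidec and Lep, and BI-272, with the most Adipoq, had 1.496 CPM. The gene overlaps Gm44079, an antisense gene, with the same uncertainty of strand as for Plin4.

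**Figure D2:**
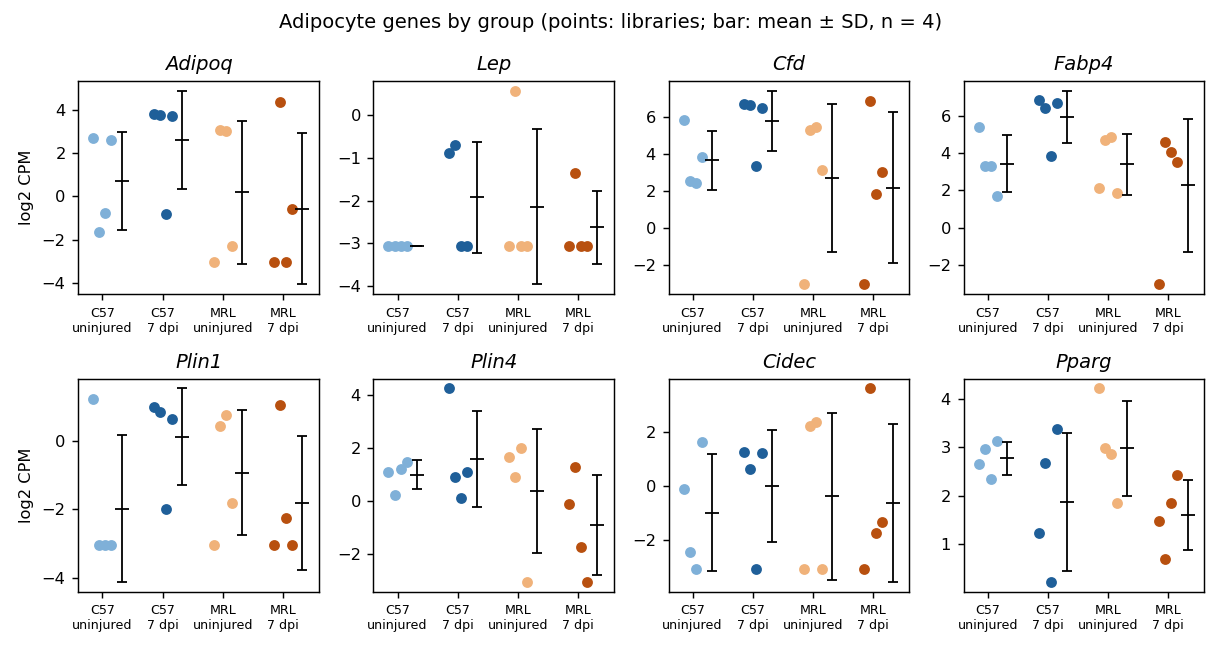
Log2 CPM (prior count 2) of each adipocyte gene, with 1 point per library and the mean ± SD of 4 libraries beside it, for uninjured and injured (7 dpi) C57 and MRL tendon. The points of every group fall into a high and a low set for Adipoq. For Cfd the points of both MRL groups reach down to 0 reads, while the lowest C57 library is at 5.24 CPM. For both genes the injured C57 library at the bottom is BI-184 and the injured MRL library at the top is BI-272.

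Levels were compared between genes per kilobase of the principal transcript. By the mean over uninjured C57, Cfd was highest at 22.6 ± 27.3 CPM per kilobase (SD, n = 4), next to Fabp4 at 18.4 ± 20.2, then Pparg at 3.87 ± 0.916 and Adipoq at 2.53 ± 2.64, then Cidec at 0.563 ± 0.816, Plin4 at 0.343 ± 0.119, Plin1 at 0.197 ± 0.393 and Lep at 0. In injured C57 Fabp4 stood at 89.3 ± 50.6 and Cfd at 82.8 ± 48.4 CPM per kilobase (SD, n = 4), and in injured MRL Cfd stood at 35.6 ± 63.0 and Fabp4 at 14.5 ± 11.3. These SDs run across libraries that the genes share, and a difference between genes within a library was not tested. Cfd and Fabp4 stood at 130 and 26.9 CPM per kilobase in BI-272, but at 3.78 and 18.3 in BI-274. The SD exceeded the mean for Adipoq in 3 of the 4 groups, all but injured C57.

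The shared rise and fall across libraries was described by the correlation of each gene's log2 CPM with the mean of the other 7 over the 16 libraries. The libraries are of 4 groups and each supplies 1 depth to all genes, so no p is given. Pearson's r was 0.94 for Adipoq, 0.85 for Plin1, 0.83 for Cidec, 0.83 for Cfd and 0.75 for Fabp4. It was 0.57 for Lep and 0.50 for Plin4, and −0.02 for Pparg. Spearman's rho gave 0.92 for Adipoq, 0.83 for Cfd, 0.78 for Fabp4, 0.74 for Cidec, 0.70 for Plin1, 0.66 for Lep, 0.43 for Plin4 and −0.02 for Pparg. It was thus lower than r for Plin1, Cidec and Plin4. Of 14369 genes with a mean of at least 1 CPM, the 8 most like the mean of the members were Car3 (r = 0.91), Aoc3 (0.86), Srpk3 (0.84), Retn (0.83), Scg3 (0.78), Tnik (0.77), Shc4 (0.77) and Tshz2 (0.77). Car3, carbonic anhydrase 3, is abundant in fat and in slow muscle, Aoc3 is an amine oxidase of adipocytes and vascular smooth muscle, and Retn is the adipokine resistin. Car3 ranged from 0 CPM in BI-270 and BI-275 to 6454 CPM in BI-181, the library rich in muscle, and was at 18.1 CPM or more in the 8 libraries with the most Adipoq and at most 3.53 CPM in the rest. Srpk3, a kinase of muscle, was likewise highest in BI-181 (70.7 CPM), so the muscle transcript of that library moved with the values of both genes. Its part in the correlations was not tested.

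The first comparison asked which genes changed at 7 dpi in C57 tendon. Of the 14424 genes tested, 155 (1.07%) were called, with an adjusted p under 0.05 and a log2 fold change over 1 in size, with 131 higher (0.908%) and 24 lower (0.166%). That count depended on single libraries, with 10 called without uninjured C57 replicate 3, 750 without uninjured C57 replicate 4 and 867 without that library and BI-181. Of the 7 adipocyte genes that passed the filter, none was called by edgeR, and 1 (Fabp4) had an unadjusted p under 0.05. Over all genes, 2204 of 14424 had such a p. Mean Adipoq was 3.28 ± 3.41 CPM uninjured and 10.2 ± 6.52 CPM injured (SD, n = 4 each), a log2 fold change of 1.59 ± 1.19 (SE; edgeR adjusted p = 0.566). Cfd went from 20.9 ± 25.2 to 76.3 ± 44.6 CPM (log2 fold change 1.84 ± 0.93, edgeR adjusted p = 0.385). For both genes 3 of the 4 injured libraries lay above every uninjured one and BI-184 did not, and neither difference passed the test. Without uninjured C57 replicate 1 the value of Cfd was 3.12 (edgeR adjusted p = 0.168).

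Fabp4 stood at 16.5 ± 18.1 CPM in uninjured and 80.0 ± 45.3 CPM in injured C57 (SD, n = 4 each), a log2 fold change of 2.26 ± 0.85 with a 95% confidence interval of 0.33 to 4.18 and an edgeR adjusted p of 0.261. DESeq2 called it, at a log2 fold change of 2.32 and an adjusted p of 0.0469, and no edgeR alternative did. Over all genes DESeq2 called 907 of the 16563 it gave an adjusted p, so 1 call among the adipocyte genes is not read as a result about them. With 1 library left out its value ran from 1.92 to 3.37, the latter without uninjured C57 replicate 1. The remaining values were 1.16 for Plin1, 1.58 for Plin4, 0.54 for Cidec and −0.53 for Pparg on the log2 scale, with adjusted p-values of 0.483 to 0.911 by edgeR. Without BI-181 that of Plin4 turned to −0.37, and without BI-181 and uninjured C57 replicate 4 together to −0.15. Cidec reached 2.29 without uninjured C57 replicate 4. Plin1 reached 7.27 without uninjured C57 replicate 1, the uninjured C57 library that had Plin1 reads, still with no call. The latter is a fitted value against 3 libraries at 0 and is no bound. The median over the 7 genes was 1.58 against −0.05 over all genes tested, but genes of low count enter a fit through the group where they are high, and these genes share their libraries.

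Markers of other cell types were summed in the same libraries. The 8 endothelial markers (Pecam1, Egfl7, Emcn and others) summed to 19.9 to 92.5 CPM in uninjured and 110 to 187 CPM in injured C57. Of the 8, 0 were called by edgeR and 7 had an unadjusted p under 0.05 (2204 of 14424 over all genes), with a median log2 fold change of 1.73. Macrophage markers (Lyz2, Csf1r, C1qa and others) summed to 699 to 1429 CPM and 4013 to 7318 CPM, with 5 of 9 called higher. BI-184, with 14.5 CPM of Fabp4, had 110 CPM of the endothelial and 7318 CPM of the macrophage markers. The part of either cell type in the level of Fabp4 was not tested. In bulk tissue, fewer cells of a type and less RNA per cell cannot be told apart.

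In MRL tendon 1057 of 14274 genes (7.41%) were called at 7 dpi, 750 higher (5.25%) and 307 lower (2.15%). Adipoq, Plin1, Cidec and Lep did not pass the filter on low counts, and of the 4 genes tested none was called by edgeR, with 1 (Pparg) at an unadjusted p under 0.05. Over all genes, 4046 of 14274 had such a p. Cfd was at 23.1 ± 21.96 CPM uninjured and 32.8 ± 58.1 CPM injured (SD, n = 4 each), a log2 fold change of 0.50 ± 1.70 (SE) with an edgeR adjusted p of 0.880. This value rested on BI-272, without which it was −2.58. Fabp4 was at 15.9 ± 13.9 and 13.01 ± 10.1 CPM, a log2 fold change of −0.29 ± 1.17 (edgeR adjusted p = 0.901), and Plin4 was at −1.39 ± 1.39 (edgeR adjusted p = 0.551).

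Pparg stood at 9.22 ± 6.47 CPM in uninjured and 3.21 ± 1.57 CPM in injured MRL (SD, n = 4 each). The log2 fold change was −1.51 ± 0.58 with a 95% confidence interval of −2.80 to −0.22 and an edgeR adjusted p of 0.121, which missed the threshold. DESeq2 called it, at −1.52 with an adjusted p of 0.0481. Over all genes DESeq2 called 1808 of the 17004 it gave an adjusted p, so this 1 call is not read as a result about the adipocyte genes. The uninjured replicate 4 (3.46 CPM) lay within the injured range and replicate 1 (18.5 CPM) far above it, and without replicate 1 the log2 fold change was −0.92. Macrophage markers summed to 939 to 1492 CPM in uninjured and 3415 to 6117 CPM in injured MRL.

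**Figure D3:**
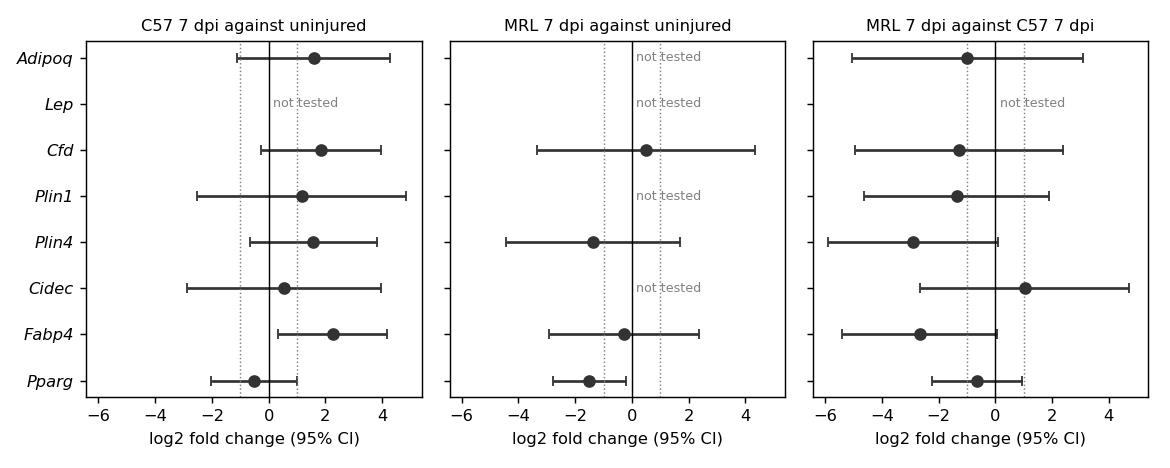
Log2 fold change with its 95% confidence interval (edgeR, 4 against 4 libraries) of each adipocyte gene at 7 dpi against uninjured in C57 and in MRL, and between the injured strains. Dotted lines mark a log2 fold change of 1 in either direction. Genes marked "not tested" did not pass the filter on low counts. The intervals are wide, and of those drawn only Fabp4 in C57 (0.33 to 4.18) and Pparg in MRL (−2.80 to −0.22) leave out 0.

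Whether injury acted differently in the strains was tested with an interaction over all 16 libraries. No gene among 15947 was called by edgeR (0%), with 1939 at an unadjusted p under 0.05, and DESeq2 called 221. None of the 7 adipocyte genes tested was called by either tool. Their interaction values, MRL injury effect minus C57 injury effect on the log2 scale, ran from −2.98 ± 1.83 for Plin4 and −2.59 ± 1.65 for Fabp4 to −0.20 ± 2.66 for Cidec (SE), with edgeR adjusted p-values of 0.538 to 0.993. All 7 were below 0. They share libraries, and single libraries moved them. Plin4 was at −1.04 without BI-181, Adipoq went from −1.25 to −6.12 and Cfd from −1.37 to −4.48 without BI-272, and Plin1 from −1.72 to −7.95 without uninjured C57 replicate 1. The sign of Cidec changed in 9 of the 16 fits made with a library left out.

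The uninjured strains were also compared. No gene of 14055 was called by edgeR (0%), with 1106 at an unadjusted p under 0.05, and DESeq2 called 104. Without replicate 4 of both strains edgeR called 497, none of them an adipocyte gene. None of the 6 adipocyte genes tested was called by either tool or had an unadjusted p under 0.05 by edgeR. They had log2 differences, MRL against C57, of −0.06 ± 0.89 for Fabp4, 0.10 ± 1.07 for Plin4, 0.12 ± 1.36 for Cfd, 0.28 ± 1.58 for Adipoq, 0.39 ± 0.51 for Pparg and 1.23 ± 1.82 for Cidec (SE; edgeR adjusted p 0.858 to 0.990). The intervals leave room for several-fold differences in either direction. That of Pparg, the narrowest, was −0.76 to 1.55.

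After injury 502 of 14626 genes (3.43%) differed between the strains, 227 higher and 275 lower in MRL. None of the 7 adipocyte genes tested was among them or had an unadjusted p under 0.05, which 3103 of all genes tested had. DESeq2 called none of the 4 it gave an adjusted p. Fabp4 was 80.0 ± 45.3 CPM in injured C57 and 13.01 ± 10.1 CPM in injured MRL (SD, n = 4 each), a log2 difference, MRL against C57, of −2.67 ± 1.19 with an interval of −5.42 to 0.07 and an edgeR adjusted p of 0.247. Plin4 differed by −2.90 ± 1.34 (edgeR adjusted p = 0.247), and by −0.94 without BI-181. Adipoq, at −0.98 ± 1.78 (edgeR adjusted p = 0.796), moved to −5.83 without BI-272, and Cfd from −1.27 ± 1.58 to −4.32. Cidec turned from 1.03 ± 1.66 to −3.25 without the same library. Endothelial markers summed to 110 to 187 CPM in injured C57 and 0.672 to 31.9 CPM in injured MRL, with 2 of 8 (Egfl7 and Pecam1) called lower in MRL. Their part in the Fabp4 difference was not tested.

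**Figure D4:**
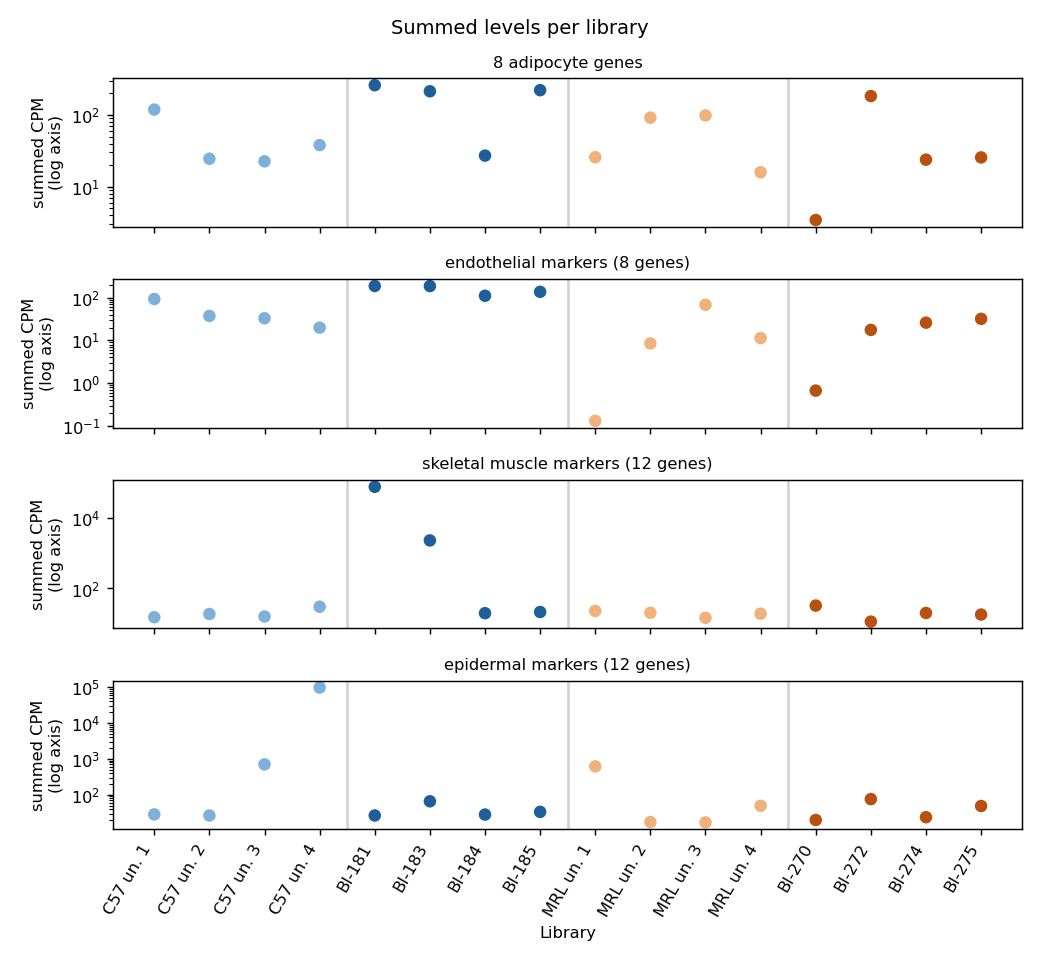
Summed CPM per library (log axis) of the 8 adipocyte genes and of the endothelial, skeletal muscle and epidermal markers, in the order of the groups. The adipocyte sum reaches 260 CPM in BI-181 and 183 CPM in BI-272 and falls to 3.45 CPM in BI-270, while muscle transcript peaks in BI-181 and epidermal transcript in uninjured C57 replicate 4.

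The summed level of the 8 genes took 0.000345% to 0.0261% of the counts. It ran from 22.6 to 119 CPM in uninjured C57, 27.2 to 260 CPM in injured C57, 15.9 to 98.5 CPM in uninjured MRL and 3.45 to 183 CPM in injured MRL. The highest sum, 260 CPM, was in BI-181, the library with the most muscle transcript. BI-183, with an adipocyte sum of 214 CPM, had 2318 CPM of muscle transcript. BI-185 (221 CPM), BI-272 (183 CPM) and both high uninjured MRL libraries (91.7 and 98.5 CPM) had at most 21.5 CPM of muscle transcript. In uninjured C57 replicate 4, the library with the most epidermal transcript, the adipocyte sum was 38.0 CPM. The part of muscle or epidermis in the adipocyte sums was not tested. Sebaceous gland markers summed to at most 8.76 CPM in any library. BI-270, the lowest, also had the second lowest endothelial sum (0.672 CPM), and uninjured MRL replicate 1, with 0 Adipoq reads, had the lowest (0.133 CPM). Other libraries went the other way. Uninjured MRL replicate 2 had 91.7 CPM of the 8 genes and 8.51 CPM of the endothelial markers, BI-272 183 and 17.6 CPM, and BI-184 27.2 and 110 CPM. A link between the sums was not tested.

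The wider adipocyte pathway was taken from lists of 80 further genes. In C57, 62 were tested and 3 were called, all higher at 7 dpi. In MRL, 60 were tested, with 4 called higher and 3 lower. Against the shares of all genes given above (0.908% and 0.166% in C57, 5.25% and 2.15% in MRL), 3 of 62 and 4 and 3 of 60 are small numbers from which nothing is read about the lists. The same holds for list genes at an unadjusted p under 0.05, which 2204 of 14424 genes had in C57 and 4046 of 14274 in MRL.

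Lpl and Cd36, which release and take up fatty acids and are made by macrophages as well as by fat and muscle, rose in both strains. Lpl measured 32.7, 9.65, 16.6 and 7.47 CPM in uninjured C57 and 197, 147, 196 and 113 CPM in injured C57. In MRL it measured 2.72, 20.8, 18.2 and 15.6 CPM uninjured and 137, 131, 93.9 and 140 CPM injured. The injured libraries lay above every uninjured one in both strains, BI-184 and BI-270 included, in contrast to Adipoq in those libraries (0.454 and 0 CPM). Here and below, groups without overlap are described only, since the share of all genes with such groups was not computed. The log2 fold change was 3.27 ± 0.48 in C57 (edgeR adjusted p = 0.0216) and 3.14 ± 0.48 in MRL (edgeR adjusted p = 0.00409). Cd36 rose from 75.5 ± 25.0 to 259.9 ± 95.9 CPM in C57 (log2 1.74 ± 0.33, edgeR adjusted p = 0.0484) and from 48.0 ± 21.4 to 160.0 ± 45.3 CPM in MRL (1.75 ± 0.33, edgeR adjusted p = 0.00921; SD, n = 4 each). The MRL calls held whichever library was left out. In C57, Lpl kept its call in 3 of 8 such fits, losing it without uninjured replicates 2 or 3, BI-183, BI-184 or BI-185 (adjusted p up to 0.0851), and Cd36 kept its call only without uninjured replicate 4 (adjusted p up to 0.136). The macrophage sums above rose in the same libraries, and their part in these rises was not tested.

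Of the 18 fatty acid uptake and triglyceride synthesis genes tested in each strain, Lpl and Cd36 were the only ones called in C57 (median log2 fold change 0.10, all genes −0.05). In MRL Scd1, a desaturase of fatty acid synthesis, was called as well, and lower. It measured 226, 238, 195 and 184 CPM uninjured and 79.2, 79.3, 113 and 70.7 CPM injured, a log2 fold change of −1.30 ± 0.18 (edgeR adjusted p = 0.00245) that held whichever library was left out. In C57 the value was −0.18 ± 0.29 (edgeR adjusted p = 0.824).

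Among other adipokines and hormone receptors (8 tested in C57, 9 in MRL, medians −0.13 and −0.16), Angptl4, a secreted inhibitor of Lpl, was called higher in MRL. It measured 0.862, 8.73, 4.77 and 3.05 CPM uninjured and 11.4, 110, 21.9 and 104 CPM injured (log2 3.83 ± 0.86, edgeR adjusted p = 0.0225). The call was lost without uninjured MRL replicates 3 or 4 or BI-275 (adjusted p up to 0.0625). In C57 it measured 1.01, 4.47, 3.70 and 3.70 CPM uninjured and 10.1, 14.9, 12.8 and 7.45 CPM injured, groups that did not overlap. The log2 fold change there was 1.77 ± 0.51, which edgeR did not call (adjusted p = 0.161) and DESeq2 did (adjusted p = 0.00771).

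Among adipocyte progenitor genes (7 tested in C57, 6 in MRL, medians 0.60 and −0.20), Pi16, a marker of fibroblasts of the fascia and of early adipocyte progenitors, was called higher in C57. It measured 11.8, 5.18, 3.63 and 6.06 CPM uninjured and 206, 358, 110 and 382 CPM injured, a log2 fold change of 5.26 ± 0.54 (edgeR adjusted p = 0.00749), and the call held whichever library was left out. All injured libraries lay far above the uninjured ones, BI-184 included. In MRL it measured 2.45, 1.95, 36.05 and 3.21 CPM uninjured and 1.64, 12.1, 61.2 and 12.7 CPM injured, with overlapping groups (log2 1.00 ± 1.18, edgeR adjusted p = 0.620). The interaction of Pi16 was among those not called. An antisense gene overlaps it. Pdgfrb, a receptor of pericytes and progenitors, was called lower in MRL (146.1 ± 22.1 to 72.43 ± 23.67 CPM, log2 −1.01 ± 0.25, edgeR adjusted p = 0.0275; SD, n = 4 each), a call kept in only 2 of 8 fits with 1 library left out, those without uninjured MRL replicate 4 and without BI-274 (adjusted p up to 0.082).

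Of the adipogenic regulators (13 tested in C57, 14 in MRL, medians −0.54 and −0.67), 0 were called in C57, where 6 had an unadjusted p under 0.05, and 1 was called in MRL. This was Klf5, a transcription factor of early adipogenesis that epidermis also expresses, which fell from 46.0 ± 9.67 to 19.5 ± 10.7 CPM (log2 −1.23 ± 0.34, edgeR adjusted p = 0.0449; SD, n = 4 each). The call was kept only without BI-274 (adjusted p up to 0.112 in the other fits). In uninjured C57 replicate 4, rich in epidermal transcript, it reached 209 CPM. Between the injured strains 62 of the 80 pathway genes were tested, and 3 were called, all lower in MRL. Over all genes, 275 of 14626 were called lower, and nothing is read about the lists from so small a number. Ebf1 and Ebf2, early B-cell factors that act with Pparg, differed by −1.82 ± 0.24 (edgeR adjusted p = 0.00334) and −2.89 ± 0.36 (edgeR adjusted p = 0.00268), MRL against C57 on the log2 scale. Ebf1 measured 78.9, 103, 101 and 113 CPM in injured C57 and 25.5, 39.4, 30.9 and 18.8 CPM in injured MRL, and both calls held whichever library was left out. The phosphatidate phosphatase Lpin1 differed by −2.18 ± 0.52 (edgeR adjusted p = 0.0476). It measured 36.9, 8.44, 15.2 and 12.1 CPM in injured C57, highest in the muscle-rich BI-181, and 2.34 to 5.86 CPM in injured MRL, and kept its call only without BI-183 (−1.53 with an edgeR adjusted p of 0.0955 without BI-181).

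None of the 9 droplet and lipolysis genes tested was called in either strain by edgeR, with 2 in C57 and 5 in MRL at an unadjusted p under 0.05 (medians −0.28 and −0.37). Plin2, a perilipin of small droplets in many cells including lipid-laden macrophages, missed a call in C57 by its size alone. It measured 53.1, 46.9, 50.6 and 42.4 CPM uninjured and 76.6, 91.9, 103 and 86.5 CPM injured, with every injured library above the uninjured ones (log2 0.85 ± 0.15, edgeR adjusted p = 0.0438). In MRL it measured 46.3 to 90.3 CPM and 90.9 to 118 CPM (0.59 ± 0.21, edgeR adjusted p = 0.0979). The most abundant were Mgll, a monoacylglycerol lipase, at 54.3 to 207 CPM in uninjured and 82.5 to 121.5 CPM in injured C57, and Plin3, a perilipin found in most cells, at 87.0 to 147 CPM and 96.7 to 134 CPM. In MRL Mgll measured 117 to 176 CPM and 73.5 to 127 CPM, and Plin3 109 to 163 CPM and 90.5 to 144 CPM.

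Of the other fatty acid binding proteins, Fabp5 was called higher in MRL, from 5.26 ± 3.76 to 21.02 ± 11.1 CPM (log2 2.01 ± 0.52, edgeR adjusted p = 0.0348; SD, n = 4 each). The call was lost without uninjured MRL replicates 2, 3 or 4, BI-270 or BI-275 (adjusted p up to 0.0963). Fabp5 is also made by epidermis and reached 2684 CPM in uninjured C57 replicate 4. In C57 it was one of 2 tested from this list of 8, and 0 of them were called by edgeR, both with an unadjusted p under 0.05.

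The brown and beige adipocyte list gave 0 calls among 5 genes tested in C57, 2 of them with an unadjusted p under 0.05, and 0 among 3 in MRL, none of them under 0.05, by edgeR (medians 3.11 and 0.54). Ucp1, the uncoupling protein that defines these cells, was at 0 in all 16 libraries. The most abundant of the list were Cox8b, at 261 CPM in BI-181, 8.20 CPM in BI-183 and at most 0.862 CPM elsewhere, and Tbx1, at 172 CPM in uninjured C57 replicate 4 and 39.7 CPM in BI-181. Cox8b is also a subunit of muscle cytochrome oxidase, and both libraries of high Cox8b were those with muscle transcript.

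**Figure D5:**
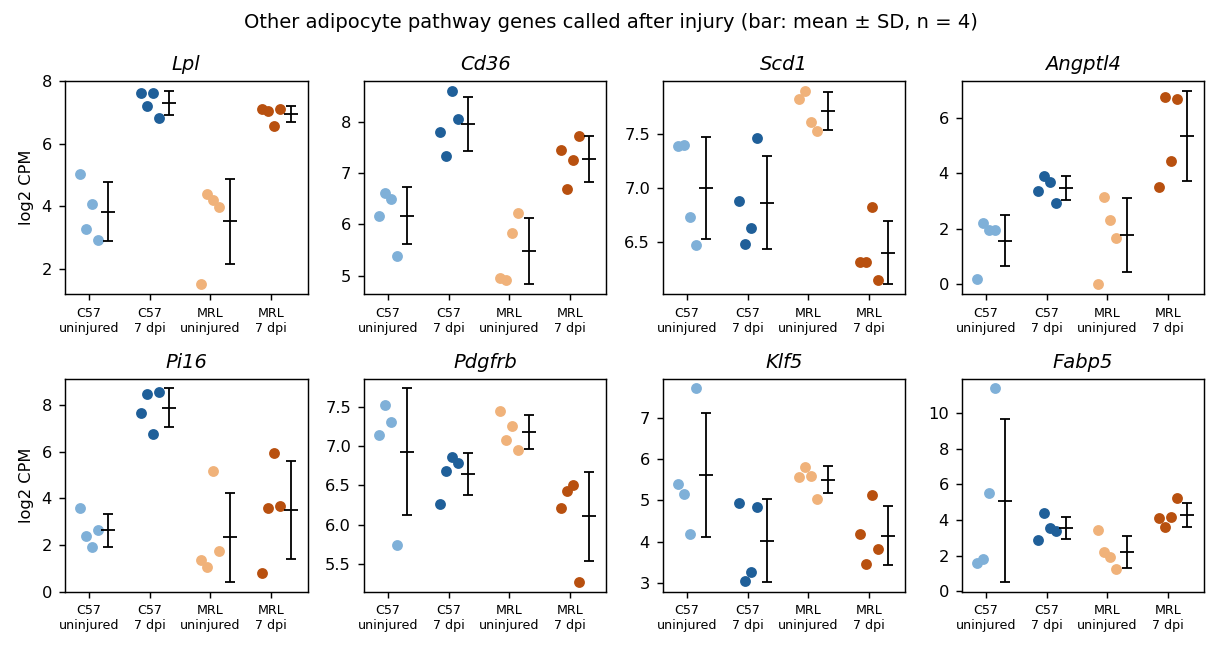
Log2 CPM (prior count 2) of the 8 further adipocyte pathway genes called at 7 dpi in either strain, with 1 point per library and the mean ± SD of 4 libraries beside it. Lpl, Cd36 and Angptl4 are higher in all injured than in all uninjured libraries of both strains, Pi16 so in C57 and Fabp5 in MRL, Scd1 and Pdgfrb are lower in all injured than in all uninjured MRL libraries, while a single uninjured C57 library (replicate 4) sets the top of Fabp5 and Klf5. The share of all genes whose groups do not overlap was not computed, so these separations are description only.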

How the data were processed

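RNA-seq counts of 16 libraries (4 per group) were used. Per the labels and methods, the authors trimmed 100 nt single-end reads with Trimmomatic 0.36, mapped them with STAR 2.5.2b to GRCm38.p5, and deposited whole-number counts per gene symbol, unnormalized. Subread 1.5.0p3, featureCounts and DESeq2 1.14.1 stand in the submitters' processing notes. The annotation and strand setting are not given in the sources used here. Labels and methods differ on the library kit, and the methods describe pre-amplification, so counting error understates technical error.

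Differential expression was tested with edgeR 4.0.16 in R 4.3.3 (expression filter, TMM, robust quasi-likelihood, Benjamini-Hochberg over all genes tested), with the 8 libraries of each comparison alone and all 16 for the interaction. Calls needed an adjusted p under 0.05 and, except for the interaction, an absolute log2 fold change over 1. SE was derived from the fold change and F statistic. The test was first run on simulated counts. Alternatives were DESeq2 1.42.0, DESeq2's size factors, no filter, 1 fit of all libraries, libraries left out and a replicate block.

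The 8 genes, the lists and the naming rule were chosen with earlier results of these data known. The rule names all 8 genes, per list every gene called in either strain (at most 4 per list and strain) or else its 2 most abundant, and the 8 genes most correlated with the members. Plin2, the 3 genes called between injured strains, genes called only under an alternative, Plin1's second motif match and marker genes were named outside that rule after their values were seen. Gene positions and lengths came from GENCODE M21 (GRCm38), in which 47139 of 49568 symbols had exactly 1 gene, and promoters from RefSeq (GRCm38.p6). Replicates are single animals per the methods. Results of 1 marker list are not reported here.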

Additional observations from a re-analysis of the deposited data

Results flagged for a closer look

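In groups of 4 libraries, a library was singled out where its distance to the nearest of the others exceeded Dixon's 95% critical value for the range of the group. Chance singles out about 1 in 20 groups of normally distributed values, a rate that CPM near 0 need not keep. Here 11 of 32 sets (8 genes in 4 groups) were singled out, which are not independent because the genes share libraries. In 3 of them (Lep in both MRL groups and Plin1 in uninjured C57) all other libraries were at 0, where any read is singled out and the 1 in 20 does not hold. Lep in uninjured C57, at 0 in every library, could not be singled out.

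BI-272 stood above the other injured MRL libraries in 5 genes, with Adipoq at 20.9 CPM (others 0 to 0.557), Cfd at 119.9 CPM (others 0 to 8.02), Cidec at 12.2 CPM (others 0 to 0.278), Plin1 at 1.95 CPM (others 0 to 0.0882) and Lep at 0.272 CPM (others 0). BI-184 stood below the other injured C57 libraries, with Adipoq at 0.454 CPM (others 13.1 to 13.9) and Cfd at 10.1 CPM (others 89.1 to 104). Uninjured C57 replicate 1 stood above its group, with Plin1 at 2.22 CPM (others 0) and Fabp4 at 43.2 CPM (others 3.19 to 9.85). BI-181 had Plin4 at 18.8 CPM (others 0.972 to 1.99), and uninjured MRL replicate 2 had Lep at 1.37 CPM (others 0).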

How the results depend on the processing

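No adipocyte gene was called by edgeR under any alternative. DESeq2 called 1 of the 6 it gave an adjusted p in C57 (Fabp4, 2.32) and 1 of 8 in MRL (Pparg, −1.52). Over all genes it called 907 of 16563 in C57 and 1808 of 17004 in MRL. Genes called in C57 numbered 907 with DESeq2, 367 in 1 fit of all libraries and 867 without the 3 libraries that stood apart, with 10 to 750 when 1 library was left out (155 as reported). In MRL they numbered 1808 with DESeq2 and 689 to 1260 with 1 library left out (1057), and for the interaction 221 with DESeq2 and 0 with any library left out. Between uninjured strains they numbered 104 with DESeq2, 1 without a filter, 497 without the libraries that stood apart and 0 to 3 with 1 left out, and between injured strains 1473 with DESeq2, 227 in 1 fit and 231 to 481 with 1 left out (502). The cause was not tested. Of 154 member values under alternatives that left out no single library, 148 kept direction and side of the threshold, 4 reversed and 2 passed it. The reversals were Plin4 in C57 without the libraries that stood apart (−0.15) and, under a replicate block in the uninjured comparison, Adipoq (−0.65), Plin4 (−0.25) and Fabp4 (0.15). That block gave 0 calls, as did the main fit, so its calls do not bear on whether the numbers pair libraries. Same-numbered libraries did not deviate together (correlations −0.26, 0.02, −0.10 and −0.23). These 4 values are too few to settle whether the numbers pair libraries. The labels give injured libraries names and no replicate number.

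Of 304 member values with 1 library left out, 31 reversed and 0 passed the threshold. The ranges of those that reversed were −0.37 to 1.93 for Plin4 in C57, −2.58 to 1.00 for Cfd and −0.76 to 0.16 for Fabp4 in MRL, −4.54 to 0.44 for the Cidec interaction, and −3.25 to 1.52 for Cidec between injured strains. Between uninjured strains they were −0.29 to 0.81 for Adipoq, −0.38 to 1.40 for Cfd, −0.32 to 0.53 for Plin4, −0.53 to 1.05 for Fabp4 and −0.18 to 0.69 for Pparg. Of the 80 pathway genes, 5 were higher and 2 lower in C57, and 2 higher and 2 lower in MRL, without the libraries that stood apart, against 9 and 1, and 4 and 8, with DESeq2. With DESeq2, 59 list genes had an adjusted p in C57 and 68 in MRL. Over all genes it called 687 higher and 220 lower of 16563 in C57, and 1124 higher and 684 lower of 17004 in MRL. Nothing is read about the lists from these counts. In C57, without the libraries that stood apart, the calls that the main fit did not make were Ebf1 and Ebf2 (higher) and Klf15 and Lepr (lower). Lep, Plin1 and Cidec had 0 reads in 12, 6 and 5 libraries, BI-270, the deepest, among them, and a level below 3 reads is not detectable at these depths.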
